A study of Mus musculus with 20 samples.

Results

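The 9 genes described here are Xlr3a, Xlr3b, Xlr3c, Xlr4a, Xlr4b, Xlr4c, Xlr5a, Pnma5 and Usp26, which all lie on the mouse X chromosome. They were found by symbol among the 46939 genes of the deposited expression table, and all 9 were present, each as 1 entry. They had been picked because earlier results of these data placed several of them among the genes highest in cells without TDG. Their difference between the genotypes is therefore given as a description, and the calls a test across all genes made on them support nothing here. The study compared mouse embryonic stem cells of a 129 background that were either wild-type (WT) or carried a knockout of Tdg (TDG KO), both kept on feeder fibroblasts with serum and LIF and freed of most feeders by repeated plating. TDG is the glycosylase that cuts the oxidised cytosines 5-formylcytosine and 5-carboxylcytosine out of DNA. Polyadenylated RNA was sequenced from 2 WT and 2 TDG KO libraries, and DNA bound by CTCF, a zinc finger protein at the ends of chromatin loops, from 2 WT and 2 TDG KO libraries. The labels name neither clones nor separate cultures, so the spread between replicates may be technical, and a difference between the genotypes may also be one between the lines.

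Xlr genes form an X-linked family in several near-identical copies. Their proteins are related to SYCP3, a structural protein of meiotic chromosomes, and XLR3 protein has been found on the sex chromosomes of male meiotic cells. Xlr3b, Xlr4b and Xlr4c are imprinted in the mouse brain, where the maternal X expresses them more. Pnma5 belongs to a family that descends from the gag gene of a retrotransposon, and Usp26 encodes a deubiquitinating enzyme of the male germline that acts on the androgen receptor. Genes of this kind are often silenced by DNA methylation outside the germline, and TDG acts in the removal of methylated cytosines after their oxidation.

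RNA is given as FPKM, a level corrected for both transcript length and library size, so levels can be compared between genes. In WT cells all of the 9 genes except Pnma5 (1.98 and 2.55 FPKM) were under 1 FPKM in both libraries. In TDG KO cells every one of the 9 was higher in both libraries. In TDG KO the order of the mean levels was Pnma5, Xlr3a, Usp26, Xlr3b, Xlr4a, Xlr3c, Xlr4b, Xlr5a and Xlr4c. The 2 TDG KO libraries of Xlr4a (4.98 and 7.08 FPKM) spanned those of its neighbour Xlr3c (5.10 and 5.41 FPKM), so these do not differ beyond their spread. Xlr3c and Xlr4b (4.46 and 4.92 FPKM) did not overlap, but they lay closer than the libraries of Xlr4a did to each other. The other neighbours in this order did not overlap.

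The promoters of 6 of the genes are shown because they let a reader see how alike the copies are at their starts and where their CG dinucleotides, the usual site of cytosine methylation, lie. Each runs from 250 bases before to 50 after a start site of the gene in RefSeq on GRCm38.p6. It is written 5′ to 3′ along the gene, with CG dinucleotides in capitals. For Pnma5 the site used, chrX:73037103, lies inside the RefSeq span of the gene, which begins at 73039721 on the minus strand. The same holds for Xlr5a, with a site at chrX:73117702 and a span beginning at 73118717. The outer ends of these spans were not read. Xlr3a lies at chrX:73097046-73097345 on the minus strand, Xlr3b at chrX:73191929-73192228 on the plus strand, Xlr4a at chrX:73082458-73082757 on the minus strand, Xlr4b at chrX:73214083-73214382 on the plus strand, Pnma5 at chrX:73037054-73037353 on the minus strand and Usp26 at chrX:51801184-51801483 on the minus strand.
Xlr3a: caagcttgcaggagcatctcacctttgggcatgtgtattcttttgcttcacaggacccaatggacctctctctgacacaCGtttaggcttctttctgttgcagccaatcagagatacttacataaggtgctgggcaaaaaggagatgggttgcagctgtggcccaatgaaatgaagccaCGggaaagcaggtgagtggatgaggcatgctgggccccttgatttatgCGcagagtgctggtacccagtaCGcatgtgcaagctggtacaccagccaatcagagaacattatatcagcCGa
Xlr3b: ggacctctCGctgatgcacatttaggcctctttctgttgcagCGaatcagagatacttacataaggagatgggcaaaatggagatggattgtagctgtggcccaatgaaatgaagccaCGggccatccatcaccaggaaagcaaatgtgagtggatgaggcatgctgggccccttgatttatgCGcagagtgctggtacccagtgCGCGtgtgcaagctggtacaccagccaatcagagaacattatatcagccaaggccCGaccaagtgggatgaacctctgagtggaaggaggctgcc
Xlr4a: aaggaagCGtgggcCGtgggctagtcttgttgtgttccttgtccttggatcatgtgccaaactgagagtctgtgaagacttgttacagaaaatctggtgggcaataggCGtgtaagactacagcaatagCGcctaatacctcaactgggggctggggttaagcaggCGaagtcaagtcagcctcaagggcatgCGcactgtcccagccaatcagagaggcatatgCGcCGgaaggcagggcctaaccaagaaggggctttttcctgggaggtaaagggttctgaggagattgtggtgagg
Xlr4b: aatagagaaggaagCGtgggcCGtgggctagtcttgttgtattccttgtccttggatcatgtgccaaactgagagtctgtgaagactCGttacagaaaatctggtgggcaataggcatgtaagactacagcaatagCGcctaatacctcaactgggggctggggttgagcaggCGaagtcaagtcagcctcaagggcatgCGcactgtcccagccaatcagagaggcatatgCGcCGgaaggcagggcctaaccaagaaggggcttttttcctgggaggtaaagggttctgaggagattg
Pnma5: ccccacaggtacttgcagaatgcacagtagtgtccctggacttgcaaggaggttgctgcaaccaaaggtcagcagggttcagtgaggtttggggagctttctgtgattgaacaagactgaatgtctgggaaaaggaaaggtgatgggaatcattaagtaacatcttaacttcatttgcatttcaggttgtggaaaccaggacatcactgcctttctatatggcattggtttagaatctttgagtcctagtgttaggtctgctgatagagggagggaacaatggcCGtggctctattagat
Usp26: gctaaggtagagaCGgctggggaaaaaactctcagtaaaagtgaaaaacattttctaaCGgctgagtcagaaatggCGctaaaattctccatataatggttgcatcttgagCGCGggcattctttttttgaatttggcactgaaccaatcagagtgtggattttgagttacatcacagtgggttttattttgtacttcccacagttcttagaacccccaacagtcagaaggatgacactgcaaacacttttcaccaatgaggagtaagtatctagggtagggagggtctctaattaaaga

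A local alignment of these windows matched Xlr4a and Xlr4b in 288 of 293 columns (98.3%) and Xlr3a and Xlr3b in 223 of 254 columns (87.8%). Xlr4c matched Xlr4a in 265 of 270 columns and Xlr4b in 274 of 278 columns, and Xlr3b matched Xlr3c in 264 of 280 columns (94.3%). Between the Xlr3 and Xlr4 windows no more than 15 columns aligned. These windows lie mostly before the start sites used, and the transcripts themselves were not compared. The sources used here do not state how any reads that fit several copies were shared out. The authors' deposited table also gives Xlr5a, Xlr3b, Xlr4b, Xlr4c and Xlr3c a common locus, chrX:73107635-73292976, so positions of these copies here come from RefSeq. Values of single copies are for that reason uncertain, and sums over a group of copies depend on it less. RefSeq also lists Xlr3b as an older name of Xlr3c, so a copy in another annotation may carry the other name.

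The Xlr3 group held most of the Xlr RNA. Xlr3a (ENSMUSG00000057836, chrX:73086293-73097095) was at 0.370 and 0.433 FPKM in WT replicates 1 and 2 and at 37.9 and 30.3 FPKM in TDG KO replicates 1 and 2. The means were 0.401 ± 0.044 and 34.1 ± 5.40 FPKM (SD, n = 2), an 85-fold ratio. On the scale of log2(FPKM + 1), which understates the change of low genes, the difference was 4.64. Only 1 of the 12035 genes with a mean of at least 1 FPKM had a higher difference, and none on the X chromosome did. Both WT libraries were far below both TDG KO libraries, and TDG KO replicate 1 was the higher of its pair.

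Xlr3b (ENSMUSG00000073125, chrX:73192150-73202930) was at 0.216 and 0.084 FPKM in WT and at 12.7 and 12.97 FPKM in TDG KO, a log2 difference of 3.59. Xlr3c (ENSMUSG00000058147, chrX:73254538-73265576) was at 0.182 and 0.082 FPKM in WT and at 5.10 and 5.41 FPKM in TDG KO, a log2 difference of 2.47. In these copies the 2 TDG KO libraries lay close together, and both WT libraries were below 0.3 FPKM, where a value rests on few reads. Summed over the 3 copies, Xlr3 RNA was 0.768 and 0.599 FPKM in WT and 55.7 and 48.7 FPKM in TDG KO. Of that sum Xlr3a took 65.2 ± 4.12%, Xlr3b 24.7 ± 2.74% and Xlr3c 10.1 ± 1.39% in TDG KO (SD, n = 2).

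The Xlr4 copies were lower but had the same split between the genotypes. Xlr4a (ENSMUSG00000079845, chrX:73074343-73082527) was at 0.026 and 0.164 FPKM in WT and at 4.98 and 7.08 FPKM in TDG KO, a log2 difference of 2.67. Xlr4b (ENSMUSG00000067768, chrX:73214321-73222453) was at 0.032 and 0.102 FPKM in WT and at 4.46 and 4.92 FPKM in TDG KO, a log2 difference of 2.42. Here TDG KO replicate 2 was the higher of the pair, whereas for Xlr3a it was the lower. Xlr4c (ENSMUSG00000031362, chrX:73234076-73243130) is listed at 0 in WT replicate 1 and at 0.018 FPKM in WT replicate 2, and was at 0.859 and 0.647 FPKM in TDG KO. Its log2 difference was 0.79, and no ratio is given against a library at 0. It alone of the 9 genes had a mean under 1 FPKM over the 4 libraries, and it did not enter the fit across genes. As a sum Xlr4 RNA was 0.057 and 0.283 FPKM in WT and 10.3 and 12.7 FPKM in TDG KO, of which Xlr4a took 52.2 ± 5.41%, Xlr4b 41.1 ± 3.13% and Xlr4c 6.72 ± 2.28% (SD, n = 2).

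Xlr5a (ENSMUSG00000058328, chrX:73107621-73118717) was at 0.039 and 0.072 FPKM in WT and at 2.19 and 2.06 FPKM in TDG KO, a log2 difference of 1.57. The span of Xlr5a overlaps that of Gm14685 in RefSeq, and the sources used here do not state whether counting used strand, so reads of the overlap cannot be told apart. Xlr5b and Xlr5c, further copies that are not among the 9 genes, were at 0.041 and 0 FPKM and at 0 and 0.046 FPKM in WT, and at 0.906 and 0.952 FPKM and at 1.47 and 1.37 FPKM in TDG KO. Both had a mean under 1 FPKM and were not tested. Summed over the 7 Xlr genes described here, WT held 0.864 and 0.955 FPKM and TDG KO 68.2 and 63.4 FPKM, a ratio of means of 72.4. The sum was steadier between replicates than Xlr3a or Xlr4a alone.

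**Figure D1:**
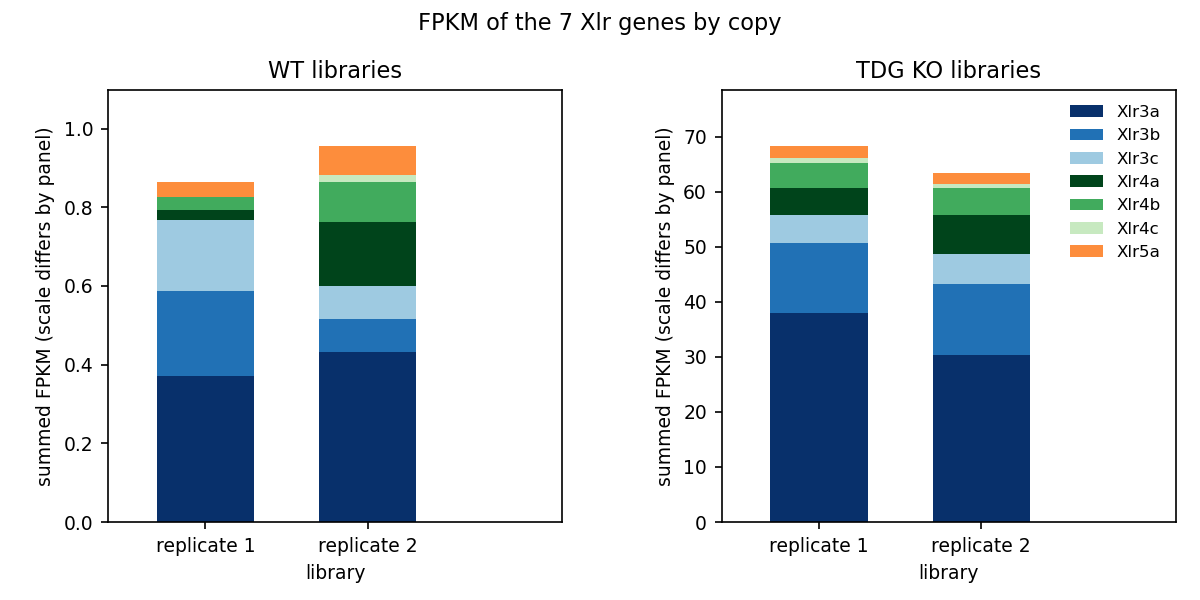
Summed FPKM of the 7 Xlr genes in each RNA library, stacked by copy, with WT on the left and TDG KO on the right; the vertical scales differ, and both start at 0. The WT bars reach 0.864 and 0.955 FPKM and the TDG KO bars 68.2 and 63.4 FPKM, with Xlr3a as the largest block in all 4 bars.

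Pnma5 (ENSMUSG00000050424, chrX:73033981-73039721) had the highest level of the 9 genes in either genotype. It was at 1.98 and 2.55 FPKM in WT and at 48.5 and 49.3 FPKM in TDG KO. The means were 2.26 ± 0.400 and 48.9 ± 0.582 FPKM (SD, n = 2), a ratio of 21.6 and a log2 difference of 3.94. Pnma5 was thus the only gene of the 9 above 1 FPKM in both WT libraries, and its TDG KO libraries differed little.

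Usp26 (ENSMUSG00000055780, chrX:51752667-51801233) lies far from the Xlr genes on the same chromosome. Its levels were 0.839 and 0.810 FPKM in WT and 19.1 and 13.7 FPKM in TDG KO. The means were 0.825 ± 0.021 and 16.4 ± 3.81 FPKM (SD, n = 2), a ratio of 19.8 and a log2 difference of 3.23. TDG KO replicate 1 was the higher library, as it was for Xlr3a, and both TDG KO libraries were well above both WT libraries.

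Across the 9 genes the lowest TDG KO library was above the highest WT library every time, which was so for 35.1% of the 12035 genes tested. By limma with Benjamini-Hochberg adjustment over those genes, 8 of the 8 that entered were called higher, against 24.4% of all genes tested, and the authors' deposited table marks 8 of the 9 as significant, all but Xlr5a. The genes were chosen on this contrast, so nothing is read from either count. The largest log2 ratios in the authors' deposited table, made with no pseudocount, are 6.42 for Xlr3b, 6.41 for Xlr3a and 6.39 for Xlr4c, and the smallest is 4.31 for Usp26. With a pseudocount of 0.1 in place of 1 the log2 difference of Xlr3a was 6.09, that of Xlr4a 5.05 and that of Xlr5a 3.85. In that scale the copies with the lowest WT levels come closer to Xlr3a.

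**Figure D2:**
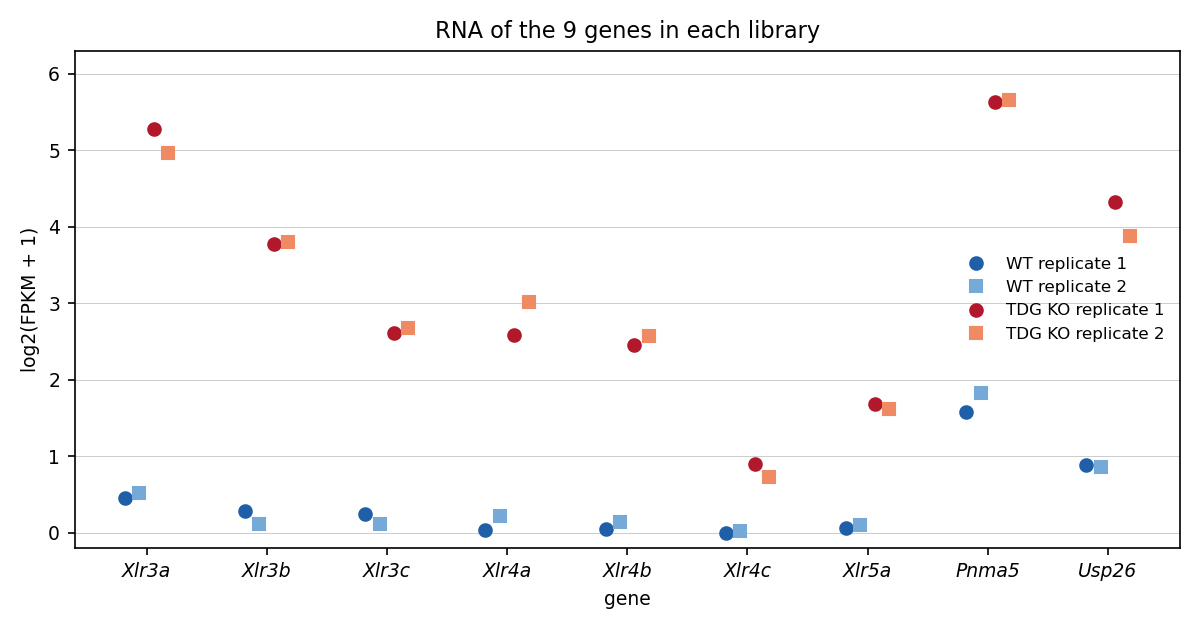
RNA of the 9 genes as log2(FPKM + 1) on the vertical axis, with 1 point for each of the 4 RNA libraries. In every gene the 2 TDG KO points (red and orange) sit above the 2 WT points (blue), from Xlr4c at 0.859 and 0.647 FPKM to Pnma5 at 48.5 and 49.3 FPKM in TDG KO.

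The libraries themselves bear on these values as follows. Tdg RNA checked the labels: it was at 28.1 and 30.4 FPKM in WT and at 5.50 and 4.74 FPKM in TDG KO (log2 difference -2.31, SE 0.087, adjusted p = 9.21e-06 in limma). Depth relative to WT replicate 1, read from the steps between low values, was 0.859 to 0.993 in the other 3 RNA libraries, and absolute depth is unknown. Of 18 tested fibroblast markers 10 fell and 1 rose, where 29.5% of all genes tested fell and 24.4% rose. In 13 of the 20 listed markers both TDG KO libraries lay below both WT libraries, beside 43.6% of all genes tested, and in 1 they lay above. Their summed level was 400 and 258 FPKM in WT and 264 and 298 FPKM in TDG KO. Without Tagln, a smooth muscle gene taken out after its values were seen (46.8 and 34.7 FPKM in WT, 69.6 and 77.7 FPKM in TDG KO), the sums were 353 and 224 FPKM in WT and 194 and 221 FPKM in TDG KO. Acta2, which also had the higher mean in TDG KO but did not pass the test, stayed in these sums (49.1 and 35.7 FPKM in WT, 46.6 and 55.6 FPKM in TDG KO). None of the 20 markers was at 0 in any library, and the part of feeder cells in the values of the 9 genes was not tested. Of 12 markers of embryonic stem cells, such as Pou5f1 and Sox2, 7 fell and 2 rose against the same shares. Those that rose were Nanog and Utf1, and Sox2 did not pass the test. The sums were 8163 and 8964 FPKM in WT and 6294 and 6497 FPKM in TDG KO. Dppa5a alone gave 4515 and 5099 FPKM of the WT sums, and 3227 and 3301 FPKM of those in TDG KO. Of 6 tested germ cell markers 4 rose and 1 fell against the same shares. The 1 that fell was Ddx4 (16.3 and 17.6 FPKM in WT, 8.36 and 8.52 FPKM in TDG KO). Dazl rose most (4.14 and 5.44 FPKM in WT, 22.7 and 21.0 FPKM in TDG KO). The sums over the listed germ cell markers were 70.6 and 74.8 FPKM in WT and 99.3 and 94.4 FPKM in TDG KO. Tex101, 1 of the 4, passed the minimum of 1 FPKM only through TDG KO (0.581 and 0.471 FPKM in WT, 1.99 and 2.21 FPKM in TDG KO). The count of 4 carries that choice. Tnp1, a marker of late sperm cells, was at 0 in all 4 libraries, and Prm1 and Prm2 were at or under 0.106 FPKM. More cells that express a gene and more RNA per cell cannot be told apart in these bulk libraries.

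CTCF peaks near the genes were, with 1 exception, the same in all 4 lists. The lists, called separately for each library, held 38303 and 37099 peaks in the WT libraries, and 48514 and 48833 in those of TDG KO. Within 50 kb of the 9 genes each list held 5 peaks, except that of TDG KO replicate 2, which held 6. Joined when 1 bp or more was common, these made 6 regions, of which 5 had a peak in all 4 lists, 0 were TDG KO-only (listed in each TDG KO library but in no WT library) and 0 were WT-only. Over all 54729 merged regions 59.8% were shared by all lists, 10.8% TDG KO-only and 0.17% WT-only, and over the 2084 regions of the X chromosome these shares were 33.1%, 10.5% and 2.06%. WT replicate 1 stood apart on this chromosome with 1501 peaks, against 966 in WT replicate 2, with 1156 and 1259 in the TDG KO lists. Without it, 5 regions were still shared by the remaining lists and 0 were TDG KO-only. No test was made, because the smallest exact permutation p that 2 lists against 2 allow is 0.33.

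Around Pnma5 and the Xlr genes 4 shared regions were listed. In mm10, chrX:72992366-72992912 and chrX:73008175-73008505 lie inside Zfp185, 41069 and 25476 bp from Pnma5. The third, chrX:73053914-73054288, lies between genes, 14193 bp from Pnma5 on the side of the Xlr genes. The fourth, chrX:73312609-73312867, lies 47033 bp beyond Xlr3c, inside the predicted gene Gm8501. Pnma5 thus sat between the second and the third region, and all 7 Xlr genes between the third and the fourth.

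Between the third and the fourth region no list had a peak over 258 kb. Of the 2083 gaps between neighbouring merged regions on the X chromosome, 92.8% were shorter, and the median was 12.8 kb. This interval holds 15 genes of the expression table: the 7 Xlr genes, Xlr5b, Xlr5c, Pnma3, F8a and 4 others with at most 0.072 FPKM in every library. The start site used for Xlr3b lay 121 kb from the nearest region and that for Pnma5 17.0 kb. The median over 32851 RefSeq promoters was 10.1 kb. The sources used here do not state how ChIP reads from near-identical copies were placed, so a missing peak among the Xlr copies does not show that CTCF was absent there.

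Whether the strength of the shared regions separated the genotypes depended on how it was measured. The score in the peak lists is the authors', and the sources used here do not define it. As deposited, both TDG KO scores were above both WT scores in 5 of the 5 shared regions, which was so for 64.0% of all 32740 shared regions and 50.7% of the 690 on the X chromosome. The percentile of a peak in its whole list gave the same 5 of 5, beside 41.6% of all shared regions and 37.5% of those on the X chromosome. The TDG KO lists are longer than the WT lists, and neither measure is corrected for that. The lists were therefore also trimmed to their 37099 strongest peaks, a step chosen after seeing the data, as was the count on the deposited scores. The region between Pnma5 and Xlr4a then stood at percentiles 62.6 and 57.8 of the WT lists, and at 86.7 and 56.6 of the TDG KO lists. The region beyond Xlr3c stood at 19.4 and 16.8 of the WT lists, and at 22.8 and 10.4 of the TDG KO lists. After trimming, 0 of the 5 shared regions had both TDG KO ranks above both WT ranks, which was so for 19.5% of the 30544 shared regions of the trimmed lists and for 7.26% of the 565 on the X chromosome. In none were both below, beside 19.6% of the 30544.

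At Usp26 the shared region chrX:51736517-51736909 lay 15758 bp outside the gene, at its end far from the start. The only region not shared was chrX:51767578-51767752, inside Usp26, listed in TDG KO replicate 2 alone. It stood at percentile 18.3 of that list, and it was gone when the lists were trimmed to equal length. Without TDG KO replicate 1 it would count as TDG KO-only, so that call rests on 1 list.

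**Figure D3:**
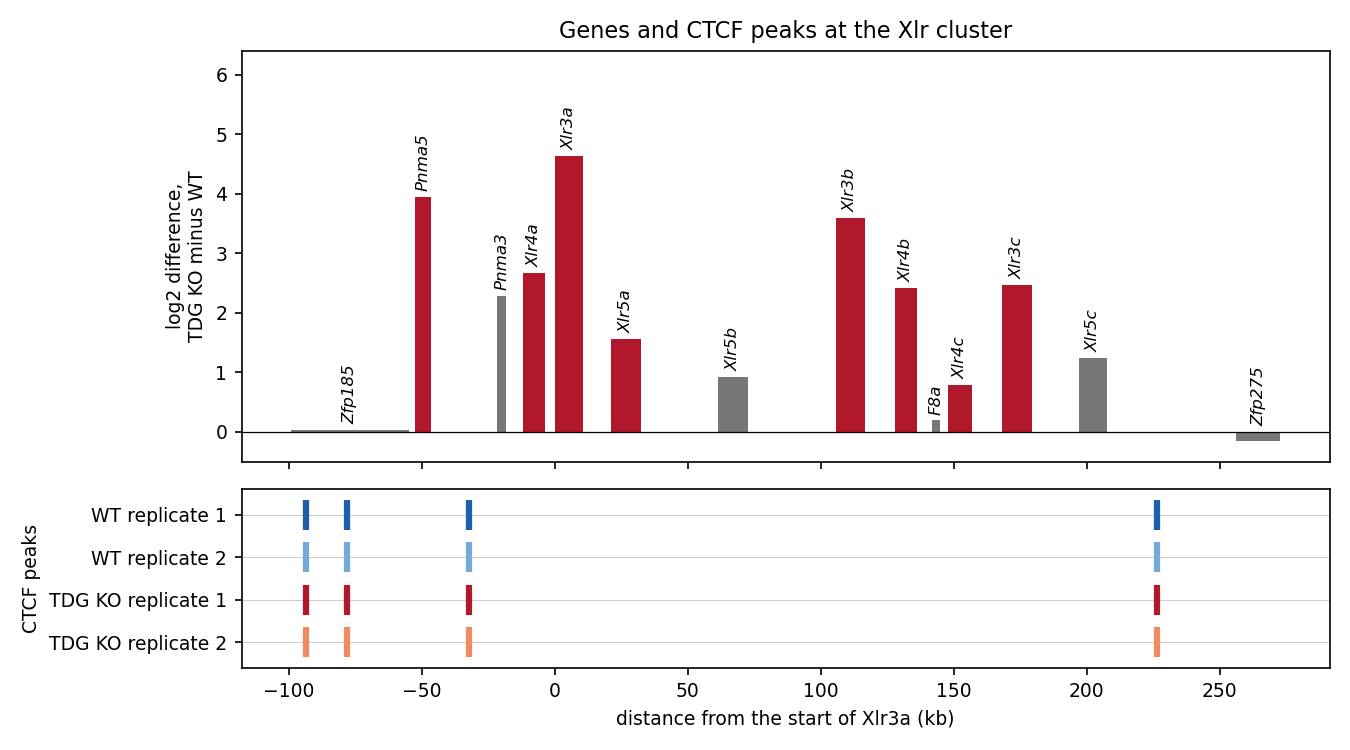
Upper panel, log2 difference in RNA (TDG KO minus WT, FPKM + 1) of genes with a mean of at least 0.3 FPKM around the Xlr cluster, with bar width showing the gene's span, the described genes in red and other genes in grey; lower panel, CTCF peaks in each of the 4 lists; the horizontal axis is the distance in kb from the lower coordinate of Xlr3a. The same 4 peaks appear in all 4 lists, and the 258 kb between the third and the fourth hold none. Among the genes drawn, those with raised bars lie between the second and the fourth. Gm18336 (chrX:73396889-73398712), which rose by 1.60, lies beyond the fourth and outside the stretch drawn.

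The tested genes that flank the cluster did not pass the test. Zfp185, the next tested gene before Pnma5, was at 5.12 and 5.52 FPKM in WT and at 5.66 and 5.24 FPKM in TDG KO, a log2 difference of 0.03 (adjusted p = 0.791 in limma). Zfp275, the next tested gene after the Xlr genes, was at 3.89 and 3.69 FPKM in WT and at 3.57 and 3.03 FPKM in TDG KO, a log2 difference of -0.16 (adjusted p = 0.21 in limma). For both genes the libraries of the genotypes overlapped or lay close together. Both were chosen by position. F8a, which lies among the Xlr genes, was at 0.812 and 0.818 FPKM in WT and at 1.16 and 0.986 FPKM in TDG KO, and its mean was under the minimum for a test.

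Pnma3, a relative of Pnma5 that lies between it and Xlr4a, was at 0.216 and 0.226 FPKM in WT and at 5.07 and 4.84 FPKM in TDG KO. It rose by 2.29 on the log2 scale (SE 0.097, adjusted p = 1.49e-05 in limma). Of the 6 tested relatives of Pnma5, Zcchc12 also rose (log2 difference 0.75), 3 fell, among them Ccdc8 and Moap1 (-0.57 and -0.54), and 1 did not pass the test. Over all genes tested 24.4% rose and 29.5% fell. Pnma3 and Zcchc12 passed the minimum of 1 FPKM only through their TDG KO libraries, and neither call is separate from that choice. None of the 4 other tested relatives rose.

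Within 1 Mb of the 9 genes, 32 other genes were tested, and 10 of them rose and 10 fell, 31.2% each. The shares were 24.4% and 29.5% over all genes tested, and 26.2% and 39.4% over those of the X chromosome. Further than Pnma3 from the cluster, the genes that rose by at least 1 on the log2 scale were Magea4, a cancer-testis antigen gene (0.166 and 0.194 FPKM in WT, 3.35 and 3.35 FPKM in TDG KO), Gm18336 (2.26 and 1.90 FPKM in WT, 8.57 and 8.04 FPKM in TDG KO) and Gpc3, a heparan sulfate proteoglycan gene near Usp26 (23.9 and 22.0 FPKM in WT, 47.2 and 47.3 FPKM in TDG KO). Their log2 differences were 1.88, 1.60 and 1.009, with adjusted p of 3.35e-05, 4.85e-05 and 7.18e-05 in limma. Magea4, like Pnma3, passed the minimum only through TDG KO. The creatine transporter gene Slc6a8 fell by 1.10 (69.0 and 67.7 to 32.0 and 30.9 FPKM, adjusted p = 3.35e-05 in limma). With Pnma3, 4 of the 32 neighbours rose and 1 fell by at least 1 on the log2 scale, beside 3.61% and 1.3% of all genes tested, and 11.3% of the tested X chromosome genes rose as far. The median log2 difference of the 32 neighbours was -0.02, beside -0.04 over all genes tested and -0.10 over the 442 tested genes of the X chromosome. Among the 29 neighbours that had a mean of at least 1 FPKM in WT alone, a choice made after seeing the data, 7 rose and 10 fell.

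**Figure D4:**
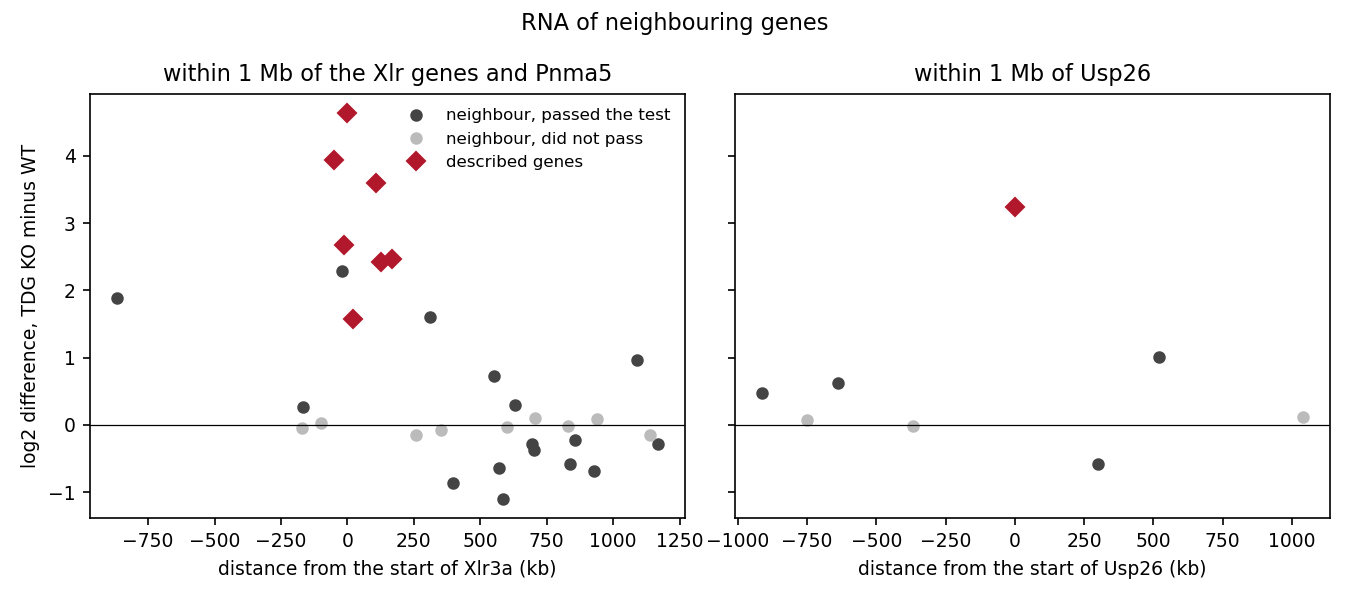
Log2 difference in RNA (TDG KO minus WT) of tested genes against the distance in kb of their lower coordinate from that of Xlr3a (left) or Usp26 (right). The described genes (red diamonds) stand from 1.57 to 4.64, while the neighbours stand from -1.10 to 2.29 with a median of -0.02. By the test 10 of 32 were higher and 10 lower (dark grey), beside 24.4% and 29.5% of all genes tested.

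Sycp3, to which the Xlr proteins are related, lies outside the X chromosome and fell by 1.12 (112 and 132 to 56.6 and 54.7 FPKM, adjusted p = 0.000143 in limma). Xlr, the founding family member, rose by 1.74 (0.217 and 0.067 to 2.93 and 2.68 FPKM, adjusted p = 8.84e-05 in limma), and it passed the minimum of 1 FPKM only through TDG KO, so its call carries that choice. These were the 2 tested of the 11 genes listed as relatives, a list that leaves out 1700013H16Rik, which RefSeq also calls Xlr6 and which is given with the X-linked germline genes. Of 10 tested genes of the synaptonemal complex and meiotic cohesin, which hold paired chromosomes together, 4 rose and 2 fell, beside 24.4% and 29.5% of all genes tested. Smc1b, a cohesin subunit, rose by 2.16, Sycp1 by 0.67 and Syce1 by 0.64.

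Of the other listed deubiquitinase genes of the Usp family, some of them X-linked, 6 were tested. Of these 1 rose and 4 fell, beside 24.4% and 29.5% of all genes tested. Usp7 rose by 0.41, and Usp9x, Usp1 and Usp37 fell by 0.71, 0.40 and 0.34 on the log2 scale. Usp37, a close relative of Usp26, lost its call without WT replicate 2 (limma, adjusted p = 0.0571), and also when TDG KO replicate 2 was left out (0.0508). None of the 6 came near the difference of Usp26. Usp29 and Usp51 were also listed, but their means were under 1 FPKM and they were not tested. Usp29 was higher in TDG KO (0.068 and 0.032 FPKM in WT, 0.445 and 0.364 FPKM in TDG KO). Usp51 was lower (0.807 and 0.981 FPKM in WT, 0.644 and 0.559 FPKM in TDG KO).

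X-linked genes of the male germline mostly rose where they could be tested. Of 47 listed genes present, 14 were tested, and 12 rose and 1 fell, beside 26.2% higher and 39.4% lower over the X chromosome. Mageb3, 1 of the 47, is placed on chromosome 2 and was not tested. The highest of the 14 were 1700013H16Rik (0.041 and 0.111 to 17.8 and 18.2 FPKM), Gm9 (0.401 and 0.364 to 16.4 and 17.4 FPKM), Fthl17f (0.085 and 0.422 to 8.53 and 10.2 FPKM) and Fthl17c (0.170 and 0.198 to 6.95 and 8.02 FPKM), the last of a family of germline ferritin genes in close copies. Their log2 differences were 4.14, 3.70, 3.06 and 2.84. The first 2 were listed with their high values already known. Only 4 of the 14 had a mean of at least 1 FPKM in WT alone, and of those 2 rose and 1 fell, a count made after seeing the data. The other 10 passed the minimum only through TDG KO, so the count of 12 carries that choice.

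Of 23 tested genes of promoter silencing 4 rose, 8 fell and 11 did not pass the test, which is near the 24.4% that rose and 29.5% that fell over all genes tested. Their median log2 difference was -0.14, beside -0.04 over all genes. The methyltransferase genes Dnmt3a and Dnmt3b and their partner Dnmt3l rose by 1.44, 1.05 and 1.02, and Zbtb38, a reader of methylated DNA, fell by 0.93 on the log2 scale.

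Genes whose pattern over the 4 RNA libraries was most like that of 4 of the described genes were named by the Euclidean distance between profiles of log2(FPKM + 1), each centred on its own mean. For Xlr3a these were Dppa3, a maternal factor of the early embryo (distance 0.35), and Rhox5, an X-linked homeobox gene (0.43). For Xlr4b they were Fkbp6 (0.12) and Gtsf1 (0.13), both genes of the germline piRNA pathway. For Pnma5 they were Tuba3a, a testis tubulin gene (0.14), and 1700019B21Rik (0.21), and for Usp26 they were Ddx3y, an RNA helicase gene of the Y chromosome (0.26), and Rhox2a (0.40). With 4 libraries this distance follows mainly the size of the difference between the genotypes. Ddx3y itself was at 0.642 and 0.566 FPKM in WT and at 13.5 and 12.1 FPKM in TDG KO. Whether the WT and TDG KO lines differ in their Y chromosome was not tested.

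None of the motifs searched was found in the promoter windows of the 9 genes. The windows of Pnma5 and Xlr5a lie inside the RefSeq spans of these genes, so what is given for them need not hold at the outer ends. In the 300-base windows Pnma5 held 1 CG dinucleotide, Xlr3a and Usp26 held 5, Xlr3b, Xlr3c and Xlr4c held 7, Xlr4a and Xlr4b held 8 and Xlr5a held 16. The median over 32851 RefSeq promoters was 7, with quartiles of 3 and 20. The E-box CACGTG was found in 0 of the 9 and in 7.15% of all promoters, the E2F site GCGGGAAA in 0 and 1.07%, and a core of the CTCF motif in 0 and 3.43%, each searched on both strands. That these letters are missing from the windows says nothing of the factors themselves.

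**Figure D5:**
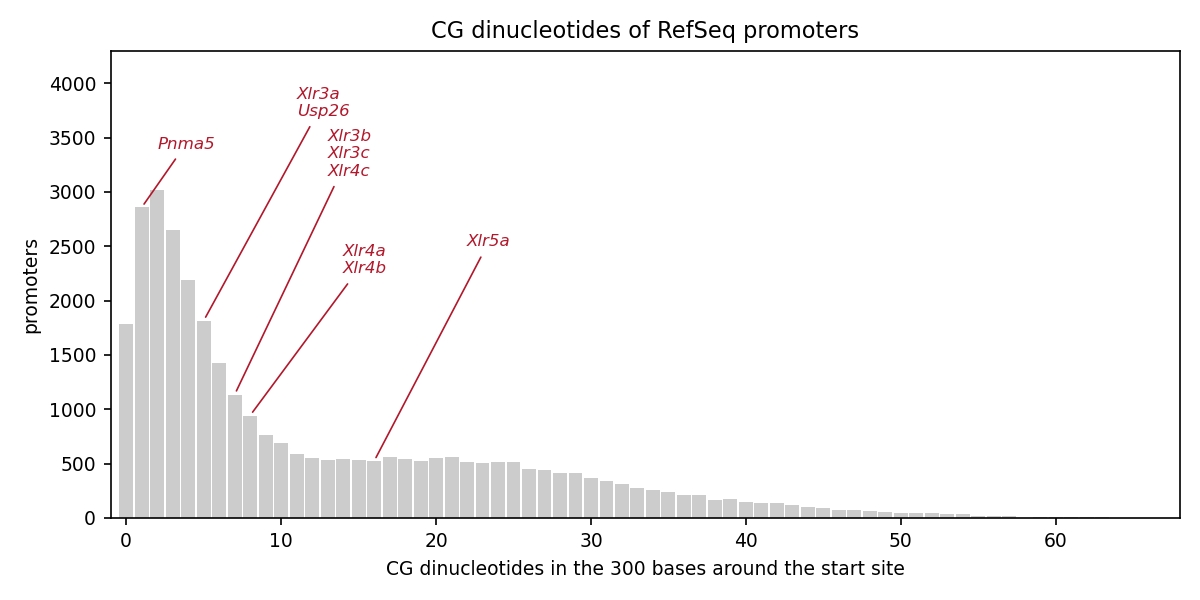
Number of RefSeq promoters (vertical axis) by their count of CG dinucleotides in the 300 bases around the start site (horizontal axis), with the 9 genes marked. Pnma5 holds 1 and Xlr5a 16, and the other 7 genes hold 5 to 8, near the median of 7. The windows of Pnma5 and Xlr5a lie inside the spans of these genes, so their counts need not hold at the outer ends.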

How the data were processed

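Per the file headers, the authors deposited FPKM of each RNA library. Their table of both genotypes holds group FPKM, a log2 ratio, p-values, q-values and a test score, per the file headers. The deposited log2 ratio is WT over TDG KO, and its sign was turned here. MACS2 2.2.1, Bowtie2 2.2.9, Cuffdiff, Cufflinks 2.2.1, TopHat2 2.1.1, deepTools and the build mm10 are named in the submitters' processing notes. The authors deposited CTCF peaks per library with a score.

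Expression was fitted with limma 3.58.1 in R 4.3.3 (trend) on log2(FPKM + 1) over 12035 genes that reached an average of 1 FPKM across the 4 libraries, with 2-sided tests and Benjamini-Hochberg adjustment at 0.05. Peaks sharing 1 bp or more became a joint region. Both procedures were tested on simulated data. Gene positions and promoters come from RefSeq on GRCm38.p6, which placed 34471 of 46939 genes. Promoters were aligned with Biopython 1.88.

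The 9 genes and the gene lists were chosen with earlier results of these data known. The rule named the 9 genes, Tdg, called neighbours within 1 Mb with a log2 difference of at least 1, up to 4 called genes per list, the 2 nearest profiles of 4 genes, and every CTCF region within 50 kb. Alternatives were another pseudocount, filters, scaling, windows, a replicate block and leaving out each library. RNA polymerase II, IgG and input libraries were not analysed here.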

Additional observations from a re-analysis of the deposited data

How the results depend on the processing

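Of the differences of single genes, the 2 calls of Usp37 given above were lost, and with a pseudocount of 0.1 the 8 described genes that were tested moved up to between 3.85 and 6.09 on the log2 scale. Genes called over the whole table numbered 6496, 3477 by the authors' deposited calls among the same genes, and 4819 to 5313 when each RNA library was left out in turn. Of the neighbours within 1 Mb, 10 were called higher, 4 at a mean FPKM of at least 5 (of 23 tested), 6 in a window of 500 kb (of 16) and 8 to 9 with a library left out. The count called lower was 10, 6 by the authors' deposited calls, 4 in a window of 500 kb and 8 to 10 with a library left out. CTCF regions near the 9 genes numbered 6, of which 5 were shared. A window of 20 kb held 3 regions with 2 shared, and fewer follow from the smaller window. Leaving out each list gave 5 to 6 regions, 5 shared, 0 to 1 TDG KO-only and 0 WT-only. The replicate numbers do not pair the libraries: deviations of WT and TDG KO replicate 1 correlated at r = -0.016 over genes. With a replicate block 6696 genes were called, and 10 neighbours higher and 10 lower. The X-linked germline list had 24 higher calls of 38 with no filter on FPKM and 3 of 4 at a mean FPKM of at least 5. WT levels under 0.3 FPKM rest on few reads, which limits ratios of single Xlr copies.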
